A study of Mus musculus with 6 samples.

Results

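A group of 9 genes of inherited enamel defects that do not encode proteins of the enamel matrix was followed across the culture media of dental epithelial organoids (DEOs). The members were Fam83h, Fam20a, Fam20c, Itgb6, Cnnm4, Wdr72, Slc24a4, Klk4 and Relt. The rule used their known link to amelogenesis imperfecta or a related enamel syndrome and no measured value. The members were, however, chosen with earlier results of these data known. All 9 were found by symbol among the 47360 gene symbols of the table.

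Enamel is made by ameloblasts, epithelial cells that first secrete a protein matrix and later resorb it while mineral fills the space. Besides the matrix proteins, this needs enzymes that phosphorylate secreted proteins, ion transporters that supply calcium and buffer acid, vesicle traffic that removes protein fragments, adhesion to neighbouring cells, and proteases that cut the matrix. Loss of genes in these groups gives thin, soft or poorly mineralized enamel even where the matrix genes are intact. DBZ (dibenzazepine) inhibits gamma-secretase, the protease that releases the active part of Notch receptors, and FGF10 is a growth factor from the mesenchyme of the tooth germ that maintains the dental epithelial stem cell niche.

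RNA was sequenced in bulk from DEOs cultured for 14 days in Matrigel, with 1 library per medium. The starting cells were adult dental epithelial stem cells from the apical bud of incisors of wild-type, 9-week-old female C57BL/6J mice, and the number of animals or cultures behind a library is not given. Every medium contained Wnt3a- and R-spondin1-conditioned media, EGF (100 µg/ml) and Noggin (200 µg/ml), an inhibitor of BMP signalling. By the methods text, all media also held N-acetylcysteine and the compound Y27632. This shared mixture is the +N medium. The +ND medium also contained DBZ, labelled at 10 µM, the +NF medium contained FGF10 (100 µg/ml), and the +NFD medium contained both. The unit of the DBZ dose differs between the labels and the methods text. The +NJ and +NFJ media were not analysed here. All values are expression levels in FPKM, fragments scaled to transcript length and library size, so that levels can be set side by side between genes. Because each medium had 1 library, no value has a replicate error, no test was made, and the differences below are between libraries. In bulk RNA, fewer cells of a type and less RNA per cell cannot be told apart.

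The libraries held an estimated 21700000 (+ND) to 28800000 (+NFD) fragments, taken from the step that 1 fragment makes in low values, and +ND had 0.796 times the depth of +N. Between 12529 and 12959 genes reached 1 FPKM. The epithelial part of the label was checked against 5 general epithelial markers (Krt5, Krt14, Cdh1, Epcam, Trp63), which do not separate dental from other epithelia. Their summed level was 19608 FPKM in +N and 15270 in +NF, against 10802 in +ND and 12564 in +NFD. The 8 fibroblast markers summed to 106 to 169 FPKM in +N, +ND and +NF and to 434 in +NFD, and the 7 macrophage markers summed to between 415 FPKM (+NFD) and 661 FPKM (+N). Lyz2 made up most of the macrophage sum, with 528 FPKM in +N and 288 in +NFD. Of the 6 macrophage markers that reached 1 FPKM in either library, 5 were higher in +NFD than in +NF and 1 lower. Against +N, 2 of 6 were higher in +NFD and 4 lower. The 4 endothelial markers summed to at most 0.326 FPKM, and of the 2 odontoblast markers Dspp was listed at 0 in every library but +NFD (0.0162 FPKM), while Dmp1 was at 6.37 FPKM in +N, 7.56 in +NF and 9.27 in +ND and at 28.0 in +NFD.

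Sequences before the start sites are shown for Fam20a and Fam20c, the abundant pair with the largest difference in level between +N and +ND among the members above 10 FPKM, and for Slc24a4, the member listed at 0 in +ND alone. They were taken from RefSeq on GRCm38.p6, which matched 7 of the 9 members with 8 start sites. Fam83h and Wdr72 were not matched. The motif searched on both strands was TGGGAA, letters within the site bound by RBPJ, the DNA-binding partner of Notch. Capitals mark it, and in Fam20c it lies on the other strand as TTCCCA. The Fam20a stretch is chr11:109722280-109722488 on the minus strand, 209 bases that end before the first annotated exon, the Fam20c stretch is the 30 bases around the motif at chr5:138754859-138754888 on the plus strand, and the Slc24a4 stretch is chr12:102128477-102128726 on the plus strand.
Fam20a: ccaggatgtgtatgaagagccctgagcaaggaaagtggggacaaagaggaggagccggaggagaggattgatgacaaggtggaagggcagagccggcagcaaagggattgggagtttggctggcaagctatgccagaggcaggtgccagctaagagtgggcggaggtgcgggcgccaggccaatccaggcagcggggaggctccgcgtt
Fam20c: gctgcctgcgggTTCCCAgccgggcctctc
Slc24a4: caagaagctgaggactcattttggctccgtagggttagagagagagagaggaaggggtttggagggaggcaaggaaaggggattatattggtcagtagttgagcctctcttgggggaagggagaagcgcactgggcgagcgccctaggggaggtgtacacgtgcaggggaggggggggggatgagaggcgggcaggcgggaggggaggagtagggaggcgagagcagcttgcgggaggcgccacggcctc
The motif occurred in 1 of the 8 windows of 250 bases, that of Fam20c, starting 210 bases before the start site. It occurred in 21.6% of all 32851 windows of that length. The Fam20c window lay within the annotated span of the gene, downstream of its first annotated base. Base composition differed widely among the members, from 38.0% G and C at the inner start site of Itgb6 to 81.2% at Fam20c, against a median of 52.4% over all windows. A match is a description of these letters and not of a bound site.

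The levels of the 9 genes covered a wide range. In +N, Fam20a (111 FPKM), Fam20c (109) and Fam83h (61.0) stood at percentiles 93.8, 93.7 and 88.0 of the genes that reached 1 FPKM. Itgb6 (8.65 FPKM) and Cnnm4 (7.79) stood at percentiles 39.9 and 36.9, and Wdr72 (3.86) and Relt (2.00) at percentiles 20.6 and 9.77. Slc24a4 and Klk4 did not reach 1 FPKM in any library. The summed level of the 9 genes was 303 FPKM in +N and 225 in +NF, against 122 in +ND and 193 in +NFD, of which Fam20a, Fam20c and Fam83h made up most.

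**Figure D1:**
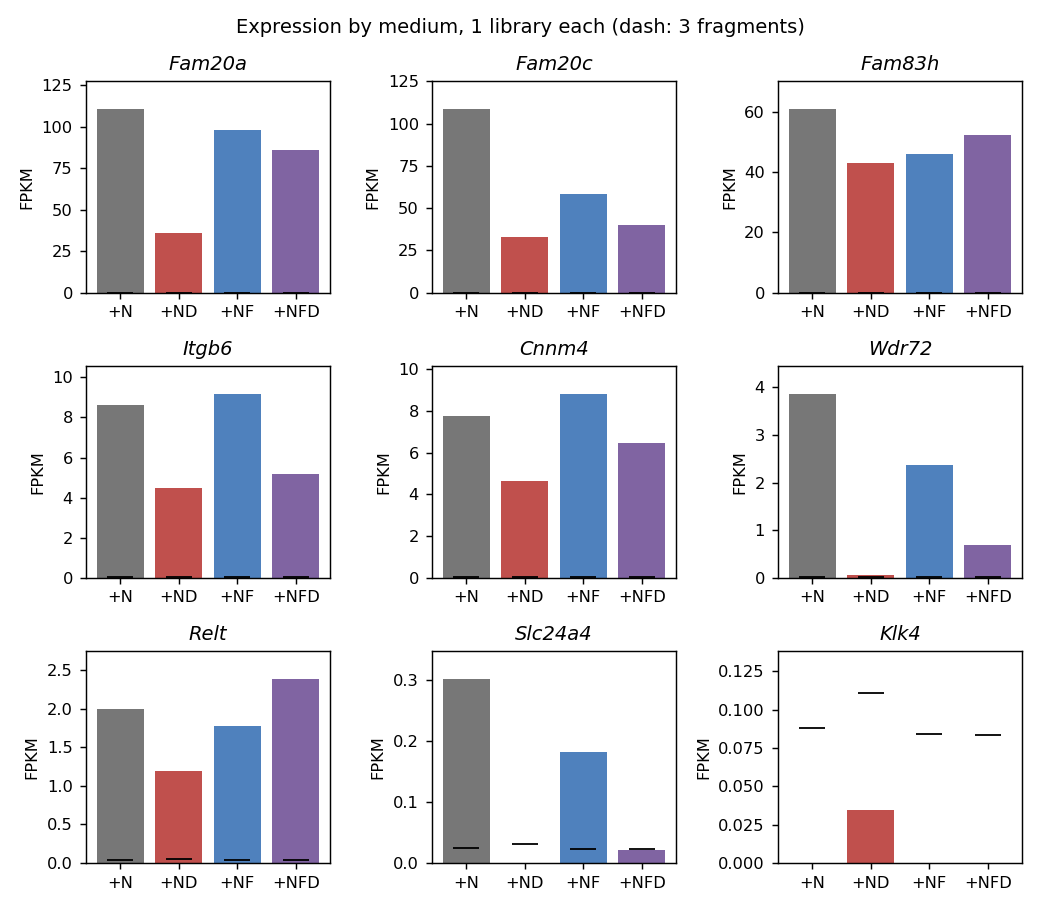
Bars give the FPKM of each member in +N, +ND, +NF and +NFD (1 library each, so no error bars), with a separate axis per gene starting at 0, and the short dash marks the FPKM that 3 fragments would give. Every gene but Klk4 had its lowest listed value in +ND, for Slc24a4 a 0 whose dash lies above the +NFD bar. The +ND bar of Wdr72 stands at 0.0630 FPKM against 3.86 in +N, and the Klk4 value in +ND lies under the dash.

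Fam20c encodes the Golgi kinase that phosphorylates secreted enamel and bone proteins, and Fam20a encodes the pseudokinase that binds and activates it. Fam20a (ENSMUSG00000020614, chr11:109669749-109722279, minus strand, 4 annotated transcripts) reached 111 FPKM in +N, 98.2 in +NF and 85.8 in +NFD, and 36.1 in +ND. The +ND library stood well below the other 3. Fam20c (ENSMUSG00000025854, chr5:138754514-138810077, plus strand, 6 annotated transcripts) reached 109 FPKM in +N, 58.5 in +NF, 40.2 in +NFD and 32.7 in +ND, so that +N stood above the other 3. The level of Fam20a relative to Fam20c was 1.02 in +N and 1.10 in +ND, then 1.68 in +NF and 2.14 in +NFD, so the pair was at nearly equal levels without FGF10 and Fam20a was the higher of them in the FGF10 libraries. The third family gene, Fam20b, a xylose kinase of proteoglycan synthesis, ranged only from 27.6 FPKM (+ND) to 36.4 (+NF).

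Fam83h encodes a scaffold protein that binds casein kinase 1 and keratin filaments, and its mutations give soft, poorly calcified enamel. Fam83h (ENSMUSG00000046761, chr15:76001093-76014336, minus strand, 2 annotated transcripts) ran from 61.0 FPKM in +N through 52.2 in +NFD and 46.1 in +NF to 43.1 in +ND, the narrowest range among the 7 members that reached 1 FPKM. K230010J24Rik overlaps it on the opposite strand and was likewise highest in +N (11.7 FPKM) and lowest in +ND (3.60), with 7.59 in +NF and 5.14 in +NFD. Since the strand setting of the counting is not given in the sources used here, fragments of the overlap cannot be assigned to either gene.

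Itgb6 encodes the beta 6 integrin subunit of epithelia, which pairs with the alpha v subunit to activate latent TGF-beta. Itgb6 (ENSMUSG00000026971, chr2:60598292-60722643, minus strand, 9 annotated transcripts) had 8.65 FPKM in +N and 9.18 in +NF, against 4.47 in +ND and 5.20 in +NFD. The libraries fell into a higher pair without DBZ and a lower pair with DBZ. Cnnm4 encodes a magnesium transporter whose loss causes enamel defects with cone-rod dystrophy. Cnnm4 (ENSMUSG00000037408, chr1:36471620-36508764, plus strand, 2 annotated transcripts) had the same order, with 8.83 FPKM in +NF and 7.79 in +N, then 6.46 in +NFD and 4.64 in +ND.

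Wdr72 encodes a protein of vesicle traffic that maturation-stage ameloblasts need to take up matrix fragments. Wdr72 (ENSMUSG00000044976, chr9:74110356-74283308, plus strand, 5 annotated transcripts) had 3.86 FPKM in +N and 2.36 in +NF, about 548 and 350 fragments. It had 0.690 FPKM in +NFD and 0.0630 in +ND, about 103 and 7 fragments, and both DBZ libraries lay below both libraries without DBZ. The Wdr72 level was 61.4-fold lower in +ND than in +N, with a 95% counting interval of 30.0- to 156-fold. In +NFD it was 3.42-fold lower than in +NF, with an interval of 2.75- to 4.32-fold. The interval covers counting error only, and the width of the first reflects the 7 fragments in +ND.

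Slc24a4 encodes a potassium-dependent sodium/calcium exchanger that delivers calcium during maturation. Slc24a4 (ENSMUSG00000041771, chr12:102128733-102267091, plus strand, 4 annotated transcripts) had 0.302 FPKM in +N (about 37 fragments) and 0.181 in +NF (23 fragments). It had 0.0209 FPKM in +NFD (3 fragments) and was listed at 0 in +ND. The value of 3 fragments in +ND would be 0.0309 FPKM. The listed +N level stood 9.75-fold and the listed +NF level 5.87-fold above this limit. These folds leave out the counting error of the +N and +NF values. In +NFD the level was 8.66-fold lower than in +NF, with a counting interval of 2.34- to 40.3-fold. As for Wdr72, both DBZ libraries lay below both libraries without DBZ, at levels too low to pass the filter used for ratios. The order of +NFD and +ND was not resolved, because 0.0209 FPKM lies below the 0.0309 FPKM limit of +ND.

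Klk4 encodes kallikrein 4, the protease that cuts the remaining matrix in the maturation stage. Klk4 (ENSMUSG00000006948, chr7:43881160-43885804, plus strand, 1 annotated transcript) had about 1 fragment in +ND (0.0346 FPKM) and was at 0 elsewhere. A count of 0 allows up to 0.0880 FPKM in +N, 0.0843 in +NF and 0.0835 in +NFD, so a difference between media was not detectable at this depth.

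Relt encodes a receptor of the tumour necrosis factor family whose mutations give poorly mineralized enamel. Relt (ENSMUSG00000008318, chr7:100845847-100863446, minus strand, 6 annotated transcripts) had 2.38 FPKM in +NFD, 2.00 in +N, 1.78 in +NF and 1.20 in +ND. It was the only member with its highest listed value in +NFD. That value was 1.19-fold the +N level, with a counting interval of 0.961 to 1.48 that included 1. The +ND level was 1.67-fold lower than in +N, with a counting interval of 1.26- to 2.24-fold, and the +NFD level was 1.99-fold higher than in +ND, with an interval of 1.52- to 2.65-fold.

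Across the 7 members that reached 1 FPKM in some library, +ND was the lowest library for all 7, whereas it was the lowest for 31.7% of the 13748 genes that reached this level. The highest listed value was in +N for 4 of the 7, in +NF for Itgb6 and Cnnm4, and in +NFD for Relt. For Itgb6 and Relt the counting interval of that level relative to +N included 1, so their highest library was not resolved. The corresponding share of all genes highest in +N was 16.2%. Slc24a4, below this level, also had its highest listed value in +N and its lowest in +ND, but its order between +ND and +NFD was not resolved.

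Ratios between media were taken as log2((FPKM + 1)/(FPKM + 1)) over genes that reached 1 FPKM in the higher of the 2 libraries, and a gene was called when it differed at least 2-fold on this scale, which understates the differences of low genes. Slc24a4 and Klk4 never passed this filter. Wdr72 was below 1 FPKM in both DBZ libraries and so passed only through the libraries where it was higher, which makes counts and medians over the members that passed a description. Over all genes, 774 were called higher and 697 lower in +ND against +N, and 615 and 842 after the ratios were centred on their median. The same step turned 361 and 319 into 248 and 412 in +NF against +N, 450 and 414 into 345 and 506 in +NFD against +ND, and 782 and 538 into 540 and 714 in +NFD against +N. The comparisons share libraries, and their values below are therefore not independent of each other.

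The +ND and +N libraries compare the presence of DBZ without FGF10. All 7 members that passed were lower in +ND, by log2 ratios from -0.45 (Relt) to -2.19 (Wdr72), and their median was -0.82 against 0.10 over the 13173 genes that passed. Fam20a (-1.59), Fam20c (-1.70) and Wdr72 (-2.19) fell at least 2-fold, so 3 of 7 were called lower where 5.29% of all genes were, and 0 were called higher where 5.88% of all genes were. Fam20a was 3.08-fold and Fam20c 3.32-fold lower in FPKM, and Wdr72 had a log2 ratio of -5.94 with no pseudocount. Itgb6 (-0.82), Cnnm4 (-0.64), Fam83h (-0.49) and Relt (-0.45) were lower without reaching 2-fold. Over all genes that passed, 41.8% were lower in +ND. The epithelial markers were also lower, 4 of 5 in +ND, and 3 of them (Krt14, Cdh1, Epcam) fell at least 2-fold, with a median log2 ratio of -1.15, while Trp63 was higher by 0.90. Of the 8 fibroblast markers, 4 were higher and 4 lower, none by 2-fold. Their part in the result was not tested.

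The +NFD and +NF libraries compare the presence of DBZ with FGF10. Of the 7 members that passed, 5 were lower and 2 higher in +NFD, with a median log2 ratio of -0.40 against 0.048 over 13349 genes. No member was called lower (2.69% of all genes were) and none higher (3.72% were). Wdr72 lay just short of 2-fold at -0.99 and passed it with a pseudocount of 0.1 (-1.64), and Itgb6 followed at -0.72. Fam20c (-0.53), Cnnm4 (-0.40) and Fam20a (-0.19) were lower by less, and Fam83h (0.18) and Relt (0.29) were higher. In this pair of libraries 4 of 5 epithelial markers were lower, with a median log2 ratio of -0.45, and all 8 fibroblast markers were higher in +NFD, 6 of them at least 2-fold. Whether that part of the RNA touches the members' ratios was not tested.

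**Figure D2:**
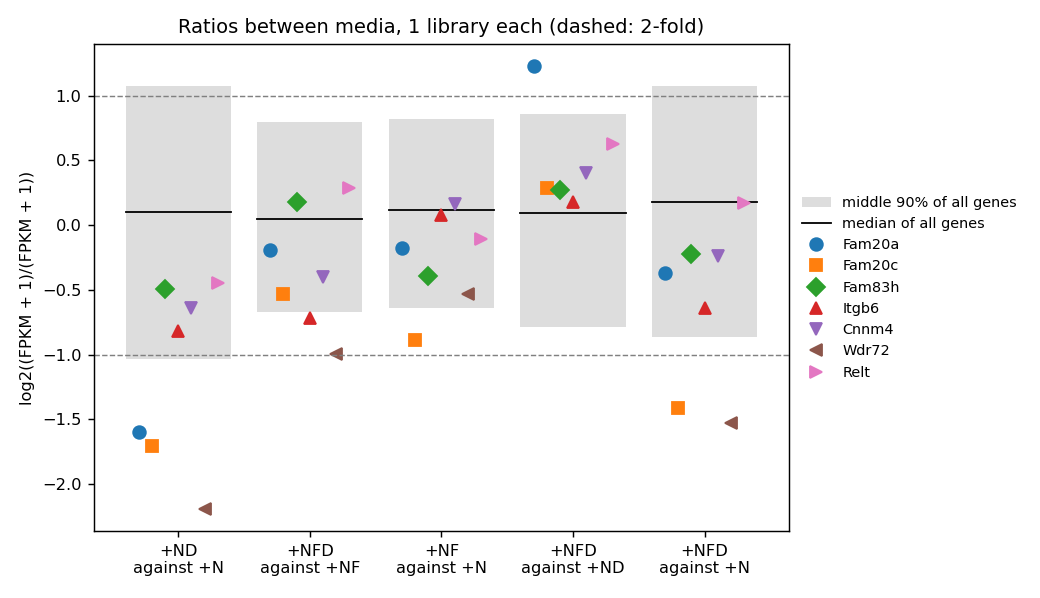
Each point is the log2 ratio of a member in the comparison named on the horizontal axis, for the members that passed the filter, the grey bars span the middle 90% of all genes that passed, the black line is their median and the dashed lines mark 2-fold. In +ND against +N, Fam20a (-1.59), Fam20c (-1.70) and Wdr72 (-2.19) lie below the dashed line, and in +NFD against +ND only Fam20a (1.23) lies above it.

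The +NF and +N libraries compare the presence of FGF10 without DBZ. Here 5 members were lower and 2 higher in +NF, with a median log2 ratio of -0.18 against 0.12 over 13090 genes, and 0 were called in either direction (2.76% of all genes were called higher and 2.44% lower). Fam20c had the largest ratio (-0.89, 1.86-fold lower, and -1.01 with upper-quartile scaling), followed by Wdr72 (-0.53), Fam83h (-0.40), Fam20a (-0.18) and Relt (-0.11). Cnnm4 was at 0.16, and Itgb6 was at 0.08, a direction that turned to -0.04 once the ratios were centred. The counting intervals of the FPKM ratio included 1 for Itgb6 and Relt. In the same pair 7 of 8 fibroblast markers were lower in +NF, 2 of them at least 2-fold, and 3 of 5 epithelial markers were lower (median -0.010), and the part of either in the members' ratios was not tested.

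With DBZ in both media, +NFD against +ND, all 6 members that passed were higher in the FGF10 library, where 59.0% of all genes were higher. Their median log2 ratio was 0.35 against 0.094 over 13293 genes. Fam20a rose by 1.23 (2.38-fold in FPKM), so 1 of 6 was called higher where 3.39% of all genes were, and 0 were called lower where 3.11% were. Relt (0.62), Cnnm4 (0.40), Fam20c (0.29), Fam83h (0.27) and Itgb6 (0.18) were higher by less than 2-fold. Wdr72 did not pass the filter, and its FPKM was 10.95-fold higher in +NFD than in +ND, with a counting interval of 5.20- to 28.3-fold. All 8 fibroblast markers were higher in +NFD as well, 6 of them at least 2-fold, with a median of 1.43, and 4 of 5 epithelial markers were higher, none by 2-fold, with a median of 0.14. What these markers contribute to the rise of the members was not tested.

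Between +NFD, with both agents, and +N, with neither, 6 of the 7 members that passed were lower and the median log2 ratio was -0.37 against 0.18 over 13358 genes. Fam20c fell by 1.42 (2.71-fold in FPKM) and Wdr72 by 1.53 (5.60-fold, counting interval 4.54 to 6.99), so 2 of 7 were called lower where 4.03% of all genes were, and 0 were called higher where 5.85% were. Itgb6 (-0.64), Fam20a (-0.37), Cnnm4 (-0.24) and Fam83h (-0.22) were lower by less. Relt was at 0.17, which became -0.0045 after centring on the median of all genes. Beside this, all 8 fibroblast markers were higher in +NFD (7 at least 2-fold, median 1.48), and 4 of 5 epithelial markers were lower (2 at least 2-fold, median -0.31). Their part in the members' values was not tested.

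The difference between the DBZ effect with and without FGF10 is the same number as the difference between the FGF10 effect with and without DBZ. It was positive for all 7 members that reached 1 FPKM in some library, against a median of -0.023 over 13748 genes. It was 1.40 for Fam20a, 1.20 for Wdr72 and 1.17 for Fam20c, so that 3 of 7 exceeded 2-fold where 3.8% of all genes did, and 0 fell below 2-fold in the other direction where 4.26% did. Relt (0.74), Fam83h (0.67), Cnnm4 (0.24) and Itgb6 (0.10) stayed under 2-fold. With the pseudocount of 1, Fam20a differed most between the backgrounds, at -1.59 with DBZ alone and -0.19 with DBZ in the presence of FGF10. Wdr72 differed most with a pseudocount of 0.1 (-4.60 and -1.64) and with none (-5.94 and -1.77). Itgb6 had nearly the same ratio in each (-0.82 and -0.72). The difference could not be tested with 1 library per medium.

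**Figure D3:**
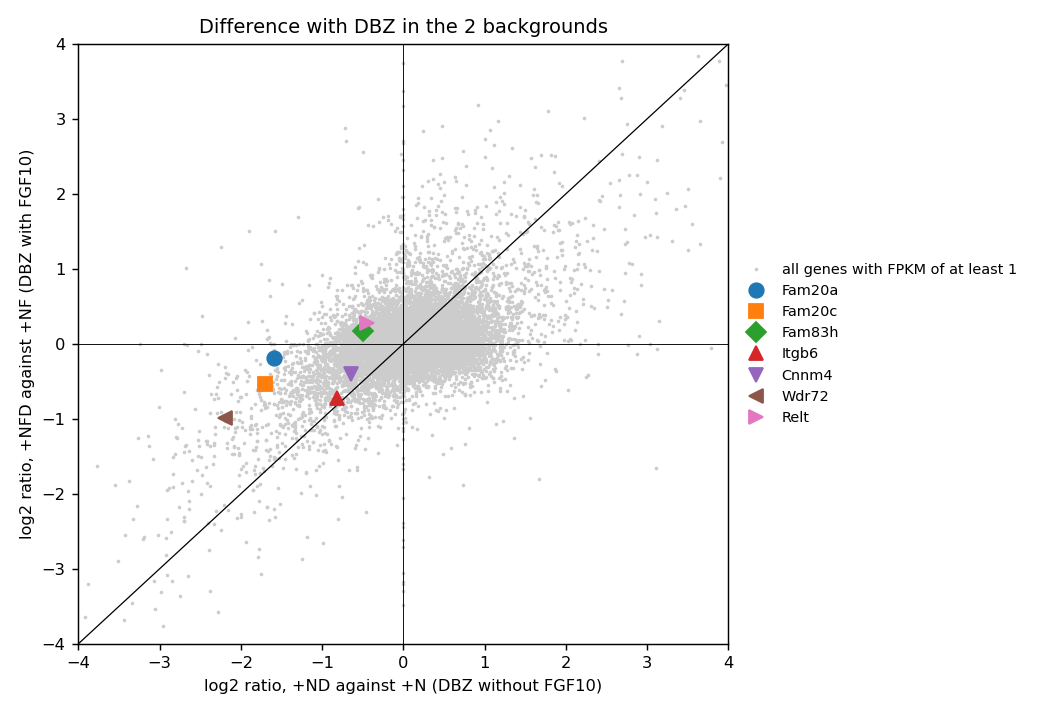
The horizontal axis is the log2 ratio of +ND against +N and the vertical axis that of +NFD against +NF, both as log2((FPKM + 1)/(FPKM + 1)), with grey points for all 13748 genes that reached 1 FPKM in some library (122 of them outside the axes) and coloured symbols for 7 members. All 7 symbols lie left of 0 and above the diagonal of equal ratios, Fam20a farthest from it, and Itgb6 closest.

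The profiles most like those of the members with a range of at least 2-fold over the 4 libraries were found by distance between centred log2(FPKM + 1) values, over 4 libraries and 10467 genes. Fam20a was nearest to Osgin1 (distance 0.030), an oxidative stress response gene with 11.4 FPKM in +ND and 27.6 (+NFD) to 37.0 (+N) in the others, and then to Gm43909 and Tcn2, a vitamin B12 carrier. Fam20c was nearest to Pvrl4 (0.12), the nectin 4 adhesion gene, with 134 FPKM in +N, 71.9 in +NF, 44.8 in +NFD and 38.5 in +ND, and then to Rarb, a retinoic acid receptor, and Ccdc12. Wdr72 was nearest to Jag1 (0.064), a Notch ligand gene with 66.4 FPKM in +N, 44.4 in +NF, 21.5 in +NFD and 14.0 in +ND, then to Dhrs3 (0.068), an enzyme of retinoid metabolism, and Engase. This scale compresses low values, so Wdr72 and Jag1 lay close on it although the FPKM of Wdr72 was 61.4-fold lower in +ND than in +N and that of Jag1 4.75-fold. With 4 points per profile, many genes can lie close to any member, and the distances are descriptions.

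The enamel matrix genes and other enamel defect genes were set beside the members by counts. In +NFD against +N, 5 of the 6 matrix genes passed, and Amelx (0.269 FPKM in +N and 323 in +NFD), Ambn (log2 ratio 4.36) and Enam (1.57) were higher while Amtn (-1.91) and Odam (-1.26) were lower. Amelx, Ambn and Enam passed only through +NFD, where they were high, so no median of those that passed is read here, and the median over all 6 was 0.91. In +ND against +N only Amtn (-1.60) and Odam (-1.14) passed, both lower. Of 19 other enamel defect genes, among them laminin and integrin subunits, calcium entry and peroxisome genes, 15 passed in +ND against +N. Of these 5 were higher and 10 lower, with a median of -0.095 against 0.10 over all genes. None was called higher, where 5.88% of all genes were, and 2 were called lower, where 5.29% were: Slc13a5, a citrate transporter (-1.47), and Ltbp3, a TGF-beta binding protein (-1.27). In +NFD against +N, 11 of 15 were higher, where 69.1% of all genes were, and 4 lower, with a median of 0.12 that lay below the 0.18 of all genes. Itgb4 (1.57), the integrin subunit of hemidesmosomes, and Dlx3 (1.11), a homeobox factor, were called higher (5.85% of all genes were), and Slc13a5 (-1.25) and Lama3 (-1.04), a laminin subunit, were called lower (4.03% were). Slc13a5 had 2.93 FPKM in +N, 1.30 in +NF, 0.657 in +NFD and 0.418 in +ND, the same order of libraries as Wdr72. It therefore passed in both comparisons only through +N, where it was high. The counts called lower in this list are descriptions.

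**Figure D4:**
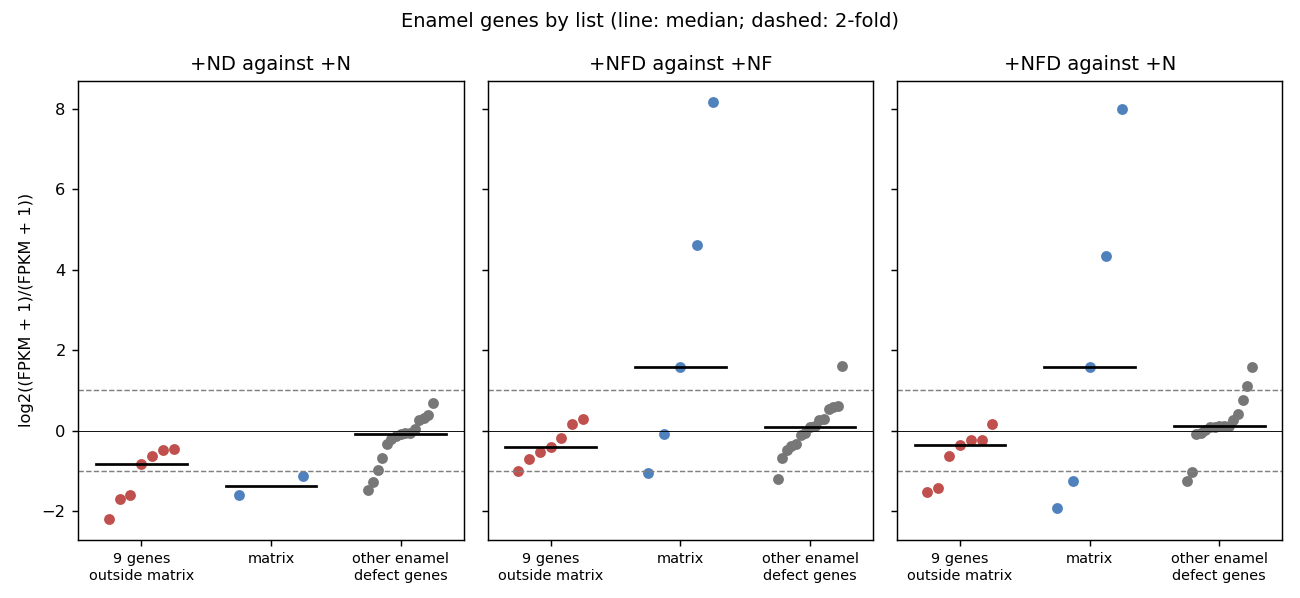
Points are genes that passed the filter, by list, in 3 comparisons, the vertical axis is log2((FPKM + 1)/(FPKM + 1)), black bars are medians and dashed lines mark 2-fold. In +ND against +N the medians were -0.82 for the genes outside the matrix, -1.37 for the 2 matrix genes that passed and -0.095 for the other enamel defect genes. In +NFD against +N they were -0.37 for the first list and 0.12 for the last, and the matrix bar lies at the value of Enam (1.57), which like Amelx and Ambn passed only through +NFD.

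Relatives of the members were read by family. The kallikrein genes were higher with DBZ, where Wdr72 and the FAM20 pair were lower. Of 10 Klk relatives, 9 passed in +ND against +N. All 9 were higher, 8 of them at least 2-fold (5.88% of all genes were), with log2 ratios from 0.32 (Klk11) to 4.96 (Klk7). In +NFD against +NF all 9 that passed were at least 2-fold higher (3.72% of all genes were), from 1.43 to 4.98. In +NF against +N all 7 that passed were at least 2-fold lower (2.44% of all genes were). Klk5 and Klk6 passed in +ND against +N only through +ND, and with Klk7 they passed in +NFD against +NF only through +NFD. Klk7 passed in +NF against +N only through +N. The counts are therefore descriptions. Klk10 had 286 FPKM in +ND and 119 in +NFD, against 30.2 in +N and 3.32 in +NF, while Klk4 stayed at or under 1 fragment. These proteases of stratified epithelium lie in the same gene cluster as Klk4 and resemble each other in sequence.

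Among the other relatives, Itgb3 was lower in both DBZ libraries (1.24 FPKM in +ND, 1.19 in +NFD) than in +NF (2.44) and +N (4.86). The collagen and laminin receptor subunit Itgb1 was higher in +ND (253 FPKM) than in +N (155), a log2 ratio of 0.70 where Itgb6 had -0.82. Fam83a, at 15.1 FPKM in +N, fell to 1.89 FPKM with DBZ (+ND) and to 0.512 with FGF10 (+NF), log2 ratios of -2.48 and -3.41, whereas Fam83h stayed within 43.1 to 61.0 FPKM. Cnnm1 was higher in +ND (1.71 FPKM) than in +N (0.266), and Cnnm3, the relative nearest in level to Cnnm4, was at 8.19 FPKM in +N and 7.45 in +ND. Wdr7, the relative of Wdr72, stayed between 2.69 FPKM (+ND) and 3.30 (+N), whereas Wdr72 lay between 0.0630 and 3.86 FPKM. Slc24a3 was the only relative of Slc24a4 above 1 FPKM, highest in +N (6.04 FPKM) and between 2.97 (+NFD) and 3.53 (+NF) in the others. Rell1, related to Relt, stayed between 41.9 FPKM (+NFD) and 53.9 (+NF).

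**Figure D5:**
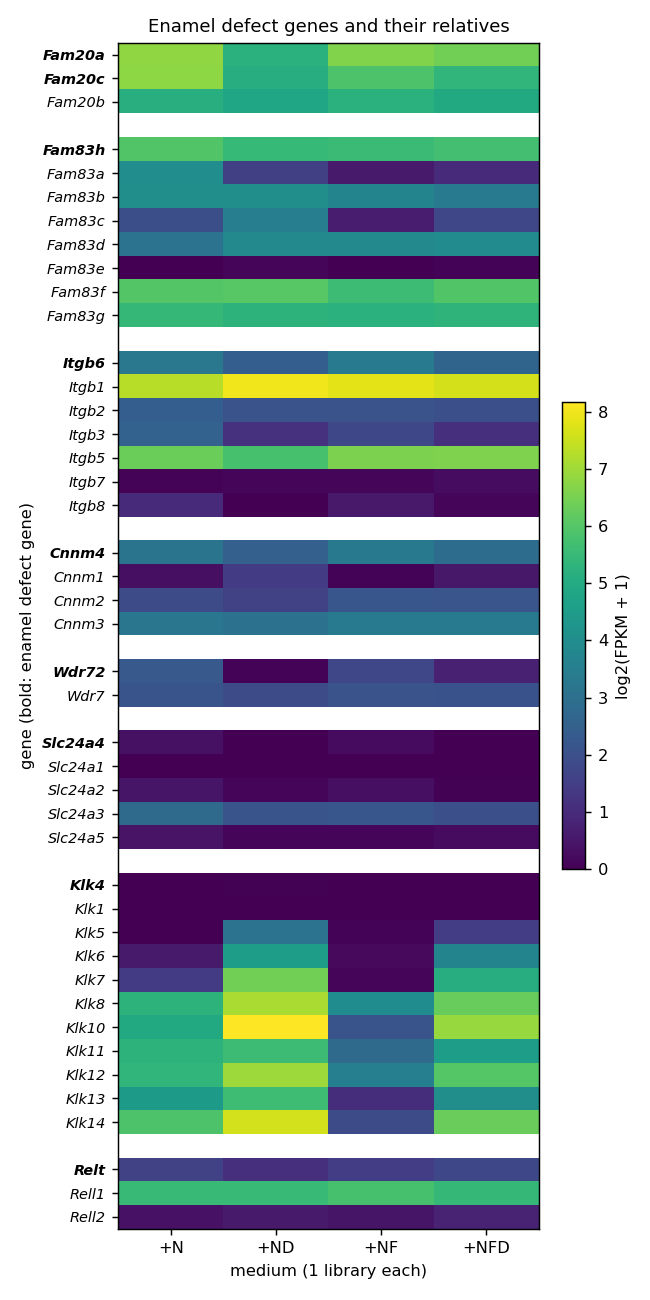
Colour gives log2(FPKM + 1) of each member (bold) and its relatives (rows, grouped by family) in +N, +ND, +NF and +NFD (columns, 1 library each). The Klk rows other than Klk1 and Klk4 are brightest in +ND, with Klk10 at 286 FPKM, while the Wdr72 row is dark in +ND and the Wdr7 row is even across the 4 columns.

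Genes whose products bind or work with the members were followed as a list of 28. In +ND against +N, 24 passed, of which 15 were higher, where 58.2% of all genes were, and 9 lower, with a median log2 ratio of 0.17 against 0.10 over all genes. None was called higher (5.88% of all genes were), and the 2 called lower (5.29% were) were Tnc (-1.16), the tenascin C ligand of the alpha v beta 6 integrin, and Atp6v0a1 (-1.01), a subunit of the vesicle proton pump. Itgav, the alpha v partner of Itgb6, had 33.7 FPKM in +N, its lowest library, 35.1 in +NFD, 39.4 in +ND and 45.4 in +NF, so that only the beta subunit was lowest in +ND. Csnk1a1, the casein kinase 1 alpha that binds FAM83H, was highest in +ND, at 298 FPKM against 180 in +N. Of the other casein kinase 1 genes listed, Csnk1e was also highest in +ND (64.3 FPKM, 35.2 in +N). Csnk1d was lowest in +ND (64.1 FPKM, 75.3 in +N). Stk39, a kinase that binds RELT, was lower in both DBZ libraries (6.84 FPKM in +ND, 5.93 in +NFD) than in +N (14.5) and +NF (17.6). Oxsr1, another kinase of the list, was instead highest in +ND (16.4 FPKM, 12.7 in +N). Ctsc, cathepsin C, a lysosomal protease that can activate kallikrein 4, had 298 FPKM in +N, 154 to 178 with 1 agent and 73.9 in +NFD, and in +NFD against +N it was called lower (-2.00) together with Tnc (-1.81) and Stk39 (-1.16), 3 of 23 where 4.03% of all genes were, with 0 called higher.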

How the data were processed

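Per the labels and the study's methods, TruSeq libraries were checked and trimmed with FastQC 0.11.9 and Trim Galore 0.6.5 and aligned to GRCm38 with TopHat 2.1.1. The authors estimated transcript abundance with Cufflinks, and the deposited values are FPKM per gene for 4 libraries. The annotation release, the strand setting and the Cufflinks options are not given in the sources used here. Because FPKM is relative to library size, highly abundant transcripts push down the values of the rest.

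Entries with the same symbol were summed (123 symbols, 0 of them members). Ratios used a pseudocount of 1, a filter of 1 FPKM in the higher library and a call at 2-fold. Depth was read from 8367 genes with 1 annotated transcript of at least 1000 nt, as the step of FPKM times length. The step was 0.0366 in +N and 0.0460 in +ND, and 0.0351 and 0.0347 in the FGF10 libraries +NF and +NFD. The inverse gives about 27300000, 21700000, 28500000 and 28800000 fragments in that order. The limit for a value at 0 is 3 fragments. Counting intervals (95%, exact binomial on approximate fragments over the longest transcript) and these limits cover counting error only. Gene positions came from GENCODE M21 (GRCm38), with 46994 of 47493 entries matched, and start-site windows from RefSeq (GRCm38.p6). Acp4 is listed under its older symbol Acpt.

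The members and gene lists were chosen with earlier results of these data known. A gene of the epithelial marker list and a gene of the other enamel defect list are not reported here, and counts and medians leave them out. All members are named, and from each list the genes past 2-fold, at most 5, relatives or partners that stand beside a member, and the 3 genes nearest in profile to each member with a range of at least 1 on the log2 scale, among genes that reached 5 FPKM. No test was made, with 1 library per medium. The 2 media with Jagged1 in the labels were not analysed here. Alternatives changed the pseudocount (0.1 or none), the filter (none or 5 FPKM), the scaling (upper quartile, or ratios centred on their median) and the joining of entries (highest in place of the sum). Scripts were tested on simulated data. Computation used Python 3.11.15 (pandas 2.3.3, numpy 2.4.6, scipy 1.17.1) and plots used matplotlib 3.10.9.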

Additional observations from a re-analysis of the deposited data

Results flagged for a closer look

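Relt, Fam83h, Fam20a, Wdr72 and Fam20c had opposite directions under the same agent, depending on the other agent. The share of all genes that did so was not computed, so their number is not read as a result about the members. Directions were taken against 0 without centring, and the counting interval of Relt in +NF against +N included 1. Relt was lower with DBZ in the absence of FGF10 and higher in its presence, and lower with FGF10 in the absence of DBZ and higher in its presence, a difference of 0.74 on the log2 scale. Fam83h did the same, with a difference of 0.67. For Fam20a (1.40), Wdr72 (1.20) and Fam20c (1.17), the ratio with FGF10 was negative without DBZ and positive with it. Wdr72 did not pass the filter in the pair of libraries with DBZ. These differences were not tested, since each medium had 1 library.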

How the results depend on the processing

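A change of pseudocount or filter cannot turn the direction of a ratio, and no member had several entries to join. Only a change of scaling could do so. Of 34 member ratios, 33 kept their direction under upper-quartile scaling and 32 under centred ratios. The exceptions were Itgb6 in +NF against +N, which went from 0.08 to -0.04 under centred ratios and upper-quartile scaling, and Relt in +NFD against +N, which went from 0.17 to -0.0045 with centred ratios. The count of members called lower in +NFD against +NF was 1 (Wdr72) in place of 0 with a pseudocount of 0.1, with no pseudocount, under centred ratios and upper-quartile scaling. In +NF against +N it was 1 (Fam20c) in place of 0 under centred ratios and upper-quartile scaling, and in +NFD against +N it was 1 in place of 2 with a filter at 5 FPKM, which removes Wdr72. With the same filter the count called lower in +ND against +N was 2 in place of 3, again without Wdr72. The other member counts did not change. The members' median in +ND against +N lay between -0.95 and -0.64, in +NFD against +NF between -0.45 and -0.21, in +NF against +N between -0.30 and -0.14, in +NFD against +ND between 0.25 and 0.39, and in +NFD against +N between -0.55 and -0.35. Over all genes, a pseudocount of 0.1 raised the count called higher from 774 to 1212 in +ND against +N, from 361 to 712 in +NF against +N (and lower from 319 to 480), from 450 to 818 in +NFD against +ND and from 782 to 1271 in +NFD against +N. No pseudocount gave 1222, 720 (lower 477), 829 and 1269. A filter at 5 FPKM gave 307 in place of 497 in +NFD against +NF, 290 in place of 450 in +NFD against +ND and 488 in place of 782 in +NFD against +N. Centring shifted all ratios by 0.10 in +ND against +N, 0.12 in +NF against +N and 0.18 in +NFD against +N. No paired analysis was possible because the results come from no test and the media share 1 replicate number; the DBZ ratios in each FGF10 background stand side by side, untested. Depth limits Klk4 in every library and Slc24a4 in both DBZ libraries.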
